A study of Homo sapiens with 6 samples.

Results

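The genes described here are the receptors EGFR, ERBB2 and ERBB3, the ligands HBEGF, AREG, EREG and TGFA, the EGFR inhibitor ERRFI1, and MET, the receptor of another growth factor, 9 genes of the 27451 in the expression table. The rule picks rows by gene symbol and uses no measured value, although the list was drawn up with earlier results of these data known, and each symbol matched 1 row. Their RNA was measured in the human breast cancer cell line MDA-MB-231, which lacks estrogen and progesterone receptors, in 3 libraries made after 2 h with 2 µM H182 and 3 libraries made after the vehicle DMSO. H182 is known here only by its code name, and the series title counts it among inhibitors of the transcription factor STAT3. Poly-A RNA was sequenced, and levels are in TPM, a length-corrected share of each library's transcripts scaled to a fixed total. The question addressed was which of these transcripts differed 2 h after the compound was added.

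EGFR family receptors are cell-surface tyrosine kinases that pair up when a ligand binds and then signal through RAS and ERK and through PI3K. The ligands are made as membrane-anchored precursors and are released by ADAM metalloproteases, so their mRNA says nothing directly about free ligand. ERBB2 has no known ligand of its own and acts as a partner, ERBB3 has a weak kinase and relays to PI3K, and MET is the receptor of hepatocyte growth factor. ERRFI1 (MIG6) binds the EGFR kinase and shuts it off, and its gene is known as a feedback gene that growth factor signalling switches on. HBEGF is likewise known as an early response gene.

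The promoters of 4 members are shown because they bear the starts of the genes with the largest changes and of a neighbouring ligand pair with unlike levels. Each runs 5′ to 3′ on the gene's own strand, from 250 bases before to 50 bases after the RefSeq start (GRCh38.p14), and capitals mark motif matches on either strand. ERRFI1 lies at chr1:8026260-8026559 (minus strand), HBEGF at chr5:140346554-140346853 (minus strand), AREG at chr4:74444886-74445185 (plus strand) and EREG at chr4:74364895-74365194 (plus strand).
ERRFI1: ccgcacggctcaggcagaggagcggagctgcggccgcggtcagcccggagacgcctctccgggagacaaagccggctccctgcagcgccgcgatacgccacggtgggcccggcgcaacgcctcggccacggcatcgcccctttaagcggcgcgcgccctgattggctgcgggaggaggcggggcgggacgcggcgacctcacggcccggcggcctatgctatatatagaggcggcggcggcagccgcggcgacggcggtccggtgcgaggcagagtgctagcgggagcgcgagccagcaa
HBEGF: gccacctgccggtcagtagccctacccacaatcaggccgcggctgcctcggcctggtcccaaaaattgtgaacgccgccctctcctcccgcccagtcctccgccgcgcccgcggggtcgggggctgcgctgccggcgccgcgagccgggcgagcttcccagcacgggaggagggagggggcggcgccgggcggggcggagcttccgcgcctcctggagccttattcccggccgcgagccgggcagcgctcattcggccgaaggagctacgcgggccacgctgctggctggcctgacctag
AREG: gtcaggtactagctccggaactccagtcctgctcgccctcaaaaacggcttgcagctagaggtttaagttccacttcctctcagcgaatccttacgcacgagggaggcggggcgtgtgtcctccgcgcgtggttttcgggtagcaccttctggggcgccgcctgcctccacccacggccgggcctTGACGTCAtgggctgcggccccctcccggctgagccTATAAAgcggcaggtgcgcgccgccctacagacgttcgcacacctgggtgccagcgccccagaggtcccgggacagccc
EREG: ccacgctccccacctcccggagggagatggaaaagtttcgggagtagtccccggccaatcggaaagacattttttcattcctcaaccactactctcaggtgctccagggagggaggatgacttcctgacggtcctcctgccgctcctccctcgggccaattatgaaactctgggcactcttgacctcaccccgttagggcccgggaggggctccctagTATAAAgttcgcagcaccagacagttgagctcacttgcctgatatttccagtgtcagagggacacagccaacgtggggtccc
The motifs searched were AP-1 (TGANTCA), the cAMP response element (TGACGTCA), EGR (GCGGGGGCG), the heat shock element (GAANNTTC), STAT (TTCNNNGAA), NF-kappaB (GGGNNTTCC), the TATA box (TATAAA) and the CArG box of serum response factor. AREG held the cAMP response element from base -65 to -58 and a TATA box from -29 to -24, counted from the start. EREG held a TATA box from -32 to -27. Of the 35116 promoters in the RefSeq table, 1.85% held that cAMP response element and 11.5% that TATA box. None of the 8 motifs was found in the HBEGF and ERRFI1 windows, nor in those of EGFR, MET and TGFA, which says only that these letters are not in 300 bases. ERBB2 held an AP-1 match and a heat shock element match, motifs present in 7.71% and 6.77% of all promoters. No motifs overlapped. GC content was 75.0% for HBEGF, 74.7% for ERRFI1, 66.3% for AREG and 57.7% for EREG, beside a median of 58.7% over all promoters. It was 75.3% for both EGFR and TGFA, 69.3% for MET and 60.7% for ERBB2, so a high GC content was not particular to the genes that rose.

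The libraries carried high levels of most markers of mesenchymal breast cancer lines. VIM was at 3430 to 3701 TPM in H182 and 4002 to 4051 TPM in DMSO, and CD44 at 957 to 1009 TPM in H182 and 1129 to 1188 TPM in DMSO, while the hormone receptor genes ESR1 and PGR reached at most 0.06 TPM. SPARC, another mesenchymal marker, was at or below 0.84 TPM, and of the luminal factors SPDEF was present at 27.16 to 33.42 TPM in H182 and 34.70 to 38.01 TPM in DMSO, and GATA3 at 6.47 to 7.27 TPM in H182 and 9.61 to 11.27 TPM in DMSO. Of 5 tested mesenchymal markers, VIM, CD44, CAV1 and AXL fell, as did both tested luminal markers, GATA3 and SPDEF. Of all tested genes, 18.7% fell (limma adjusted p under 0.05). FOXA1, a luminal factor that averaged under 1 TPM and was not tested, had 0.74, 1.83 and 1.35 TPM in H182 libraries. In DMSO libraries FOXA1 had 0.24, 0.19 and 0.88 TPM, so its mean was higher in H182 while the groups overlapped. CD44, CAV1, AXL and GATA3 also passed with median-of-ratios scaling, where 6.78% of tested genes were lower. VIM and SPDEF did not pass with that scaling (limma adjusted p = 0.270 and 0.204). The part of these shifts in the falls of EGFR and MET was not tested. The summed endothelial markers reached at most 0.49 TPM in H182 and 0.77 TPM in DMSO, with EMCN at 0, and the summed erythroid markers at most 1.27 and 0.58 TPM, with HBB at 0. Of the leukocyte markers CD68 made up nearly all of the sum (139 to 144 TPM in H182, 148 to 160 TPM in DMSO). Libraries of 1 group correlated across genes at r = 0.993 to 0.994, and libraries of different groups at 0.979 to 0.981. In bulk RNA, fewer cells with a transcript and less of it per cell cannot be told apart.

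Of the 9 members, 8 had a mean of at least 1 TPM and were tested. HBEGF, AREG and ERRFI1 rose, EGFR and MET fell, and ERBB2, ERBB3 and TGFA did not pass. Among all 12294 tested genes, 5.30% were higher and 18.7% were lower at an adjusted p under 0.05 (limma), and 24.0% were called in either direction. With median-of-ratios scaling, which sets the typical gene to no change, 7.88% were higher and 6.78% lower, 14.7% in all. Under that scaling the 3 rises stayed past the threshold and the falls of EGFR and MET did not. The TPM values of H182 and DMSO were fully separate in the same 5 members, 3 higher and 2 lower, beside 41.4% of all tested genes, 8.67% higher and 32.7% lower. The median tested gene changed by -0.09 on the log2 scale in TPM and by 0.00 with median-of-ratios scaling. A small fall in TPM is therefore read here against that shift.

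**Figure D1:**
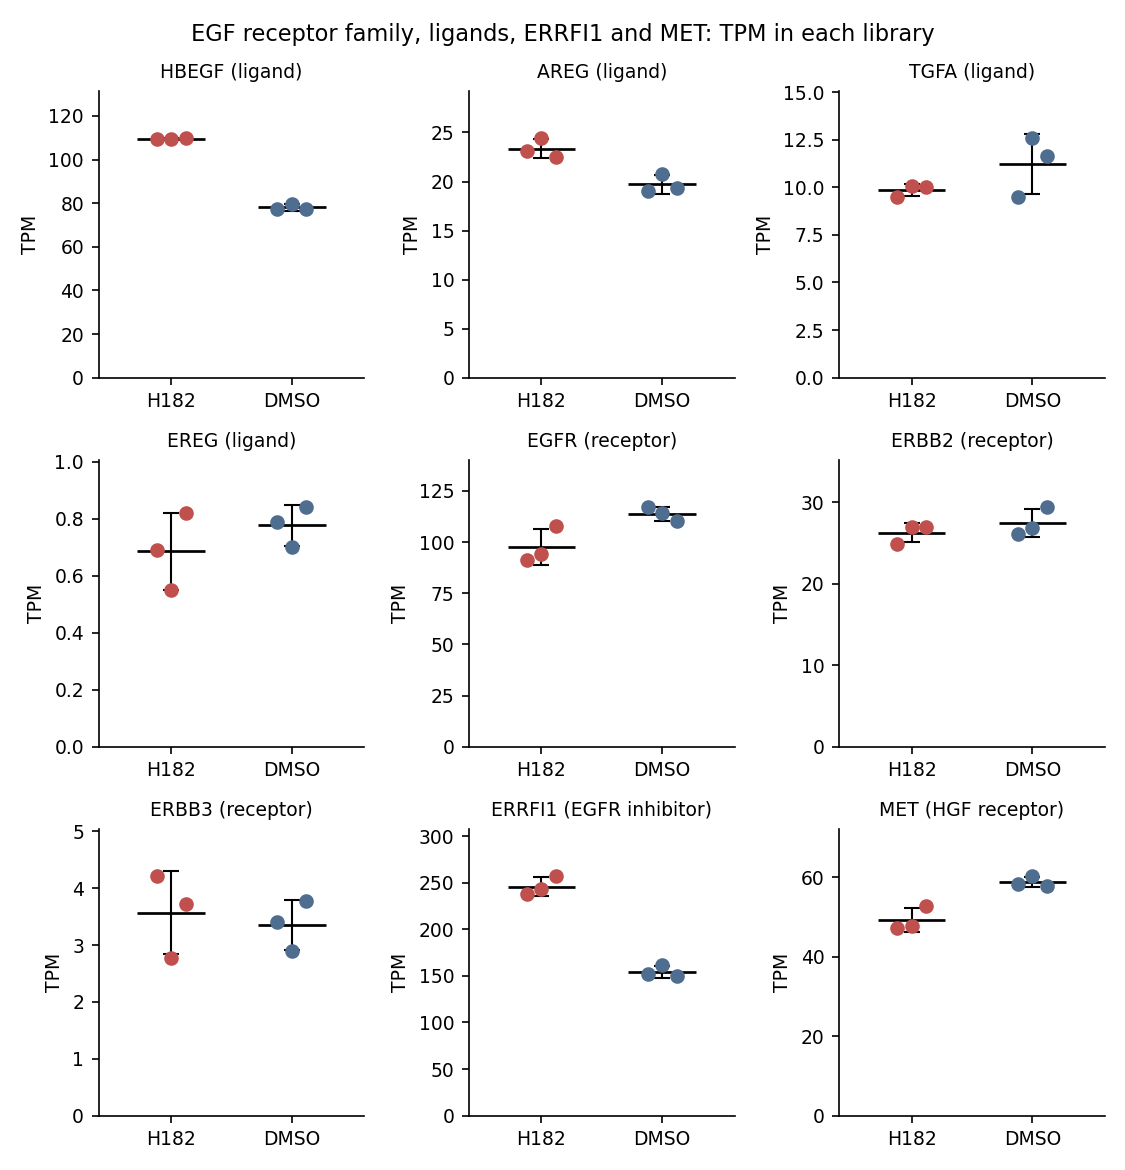
TPM of each of the 9 genes in each library, H182 left and DMSO right, with a separate linear axis per gene that starts at 0; points are libraries, horizontal bars are means and whiskers are SDs (n = 3 each). HBEGF, AREG and ERRFI1 lie higher in all 3 H182 libraries, EGFR and MET lie lower in all 3, and the groups overlap in TGFA, EREG, ERBB2 and ERBB3.

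Of the 4 ligand genes described here, HBEGF had the highest level. HBEGF, which encodes heparin-binding EGF-like growth factor, a ligand of EGFR and ERBB4, had 109.53, 109.54 and 109.70 TPM in H182 libraries, against 77.13, 79.72 and 77.24 TPM in DMSO libraries. The 3 H182 values were nearly equal, and all lay above every DMSO value. The ratio of mean TPM was 1.40 (log2 change 0.48, SE 0.041, limma adjusted p = 3.68e-05). With median-of-ratios scaling its log2 change was 0.59. The gene (ENSG00000113070.7) spans 13.8 kb of chromosome 5, 140332843 to 140346631 on the minus strand in GRCh38, with 6 exons.

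AREG encodes amphiregulin, an EGFR ligand and was the second ligand of the 4 by level. AREG had 23.11, 24.40 and 22.53 TPM in H182 libraries and 19.02, 20.76 and 19.32 TPM in DMSO libraries. Every H182 value was above every DMSO value, with the nearest pair 22.53 TPM in H182 and 20.76 TPM in DMSO. The ratio of means was 1.19 (log2 change 0.23, SE 0.070, limma adjusted p = 0.0377). With median-of-ratios scaling the log2 change was 0.33 (limma adjusted p = 0.0112). The call in TPM was near the threshold: it held without H182 replicate 3 (limma adjusted p = 0.0447) and was lost without any other single library, at limma adjusted p = 0.0799 and 0.122 without H182 replicates 1 and 2, and 0.104, 0.0530 and 0.1003 without DMSO replicates 1, 2 and 3.

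EREG, the epiregulin gene, lies next to AREG and was close to silent. It had 0.69, 0.55 and 0.82 TPM in H182 libraries, against 0.79, 0.70 and 0.84 TPM in DMSO libraries. The groups overlapped, the mean fell short of the 1 TPM needed for the test, and an exact permutation test (two-sided) gave p = 0.4. AREG and EREG sit with EPGN and BTC, other EGF-like ligand genes, within 486 kb of chromosome 4, where 56.4 kb separate EREG (74365143 to 74388751) from AREG (74445134 to 74455009). EPGN was listed at 0 in all 6 libraries and BTC was between 0.26 and 0.67 TPM, so AREG alone of these 4 neighbours exceeded 1 TPM.

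TGFA, the gene of transforming growth factor alpha, another EGFR ligand, did not pass. It had 9.49, 10.06 and 10 TPM in H182 libraries and 9.50, 12.57 and 11.65 TPM in DMSO libraries. DMSO replicate 1 lay among the H182 values and the other two DMSO values above them. The log2 change was -0.17 (limma adjusted p = 0.297), with a 95% confidence interval of -0.41 to 0.08, or a ratio of 0.753 to 1.06. It was -0.27 without DMSO replicate 1, -0.09 without DMSO replicate 2 and -0.07 with median-of-ratios scaling, and passed in none of these.

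Summed over HBEGF, AREG, EREG and TGFA, ligand mRNA came to 142.82, 144.55 and 143.05 TPM in H182 libraries and 106.44, 113.75 and 109.05 TPM in DMSO libraries. HBEGF made up 76.4 ± 0.525% of that sum in H182 and 71.1 ± 1.22% in DMSO (SD, n = 3 each), and TGFA 6.86 ± 0.191% in H182 and 10.2 ± 1.14% in DMSO. AREG made up 16.3 ± 0.570% in H182 and 17.9 ± 0.275% in DMSO, although its TPM was higher in H182. Shares of a sum are tied to each other, so a lower share need not mean a lower level of that gene. NRG1, the neuregulin gene whose products bind ERBB3 and ERBB4, was the remaining ligand gene at a high level, with 80.37, 75.93 and 85.21 TPM in H182 libraries and 84.94, 86.60 and 84.01 TPM in DMSO libraries. NRG1 did not pass (log2 change -0.08, limma adjusted p = 0.284). HBEGF divided by NRG1 in the same library was 1.36, 1.44 and 1.29 in H182 and 0.908, 0.921 and 0.919 in DMSO. The TPM of HBEGF was thus above that of NRG1 in every H182 library and below it in every DMSO library.

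EGFR was the most abundant receptor of the family. EGFR (ENSG00000146648.15, chromosome 7, 55019021 to 55211628, plus strand) had 91.39, 93.95 and 107.85 TPM in H182 libraries, against 116.96, 114.37 and 110.14 TPM in DMSO libraries. H182 replicate 3 stood nearest to the DMSO group. The ratio of means was 0.859 (log2 change -0.22, SE 0.064, limma adjusted p = 0.0329). With median-of-ratios scaling the log2 change was -0.12 (limma adjusted p = 0.207), and the gene no longer passed. In TPM the call held without H182 replicate 3 (limma adjusted p = 0.00490) and was lost without any other single library, at limma adjusted p = 0.103 and 0.109 without H182 replicates 1 and 2, and 0.0912, 0.0856 and 0.0502 without DMSO replicates 1, 2 and 3. Of all tested genes, 21.6% had a lower log2 change than EGFR.

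ERBB2, the gene of HER2, had 24.92, 26.97 and 26.97 TPM in H182 libraries and 26.17, 26.84 and 29.40 TPM in DMSO libraries. The groups overlapped, and the log2 change was -0.06 (limma adjusted p = 0.569), with a 95% confidence interval of -0.22 to 0.10. Its sign was turned by scaling, to 0.04 with median-of-ratios scaling and 0.01 with quantile normalization. ERBB2 shares its annotated span with PGAP3 and MIEN1 on the opposite strand, which reached 5.05 and 58.19 TPM; whether reads were counted by strand is not given in the sources used here, so reads could be shared. EGFR and ERRFI1 likewise overlap annotated antisense genes, EGFR-AS1 and AL034417.4, which have no row in the expression table, so their levels are unknown.

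ERBB3 was low, at 4.21, 2.78 and 3.73 TPM in H182 libraries and 3.40, 2.89 and 3.77 TPM in DMSO libraries. Neither group was consistently above the other. AC034102.2, a protein-coding gene on the same strand whose span overlaps that of ERBB3, was at 6.75 TPM in H182 replicate 2, the library with the lowest ERBB3 value, and at 0 in the other 5. How reads were divided between them was not tested, and without that library the ERBB3 log2 change was 0.19. With all 6 libraries, its log2 change of 0.06 (limma adjusted p = 0.802) had the widest interval of the tested members, -0.28 to 0.41. ERBB4, the remaining receptor of the family and no member here, was at or below 0.03 TPM in every library. EGFR made up 76.5 ± 1.13% of the summed TPM of EGFR, ERBB2 and ERBB3 in H182 and 78.7 ± 1.598% in DMSO (SD, n = 3 each), so the mix of receptors overlapped between the groups.

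ERRFI1 had the highest level of the 9 genes in both groups and the largest change. It had 237.55, 242.98 and 256.77 TPM in H182 libraries, against 151.56, 161.71 and 149.33 TPM in DMSO libraries. All 3 H182 values lay well above all 3 DMSO values. The ratio of means was 1.59 (log2 change 0.67, SE 0.047, limma adjusted p = 8.24e-06), and with median-of-ratios scaling the log2 change was 0.77. Of the 12294 tested genes, 274 had a larger log2 change. ERRFI1 (ENSG00000116285.12) spans 21.9 kb of chromosome 1, 8004404 to 8026308 on the minus strand, with up to 4 exons.

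MET, the hepatocyte growth factor receptor gene, had 47.15, 47.62 and 52.70 TPM in H182 libraries, against 58.37, 60.20 and 57.89 TPM in DMSO libraries. As for EGFR, H182 replicate 3 was the H182 library nearest to DMSO. The ratio of means was 0.836 (log2 change -0.26, SE 0.058, limma adjusted p = 0.0118). With median-of-ratios scaling the log2 change was -0.15 (limma adjusted p = 0.0729), and the gene no longer passed. MET (ENSG00000105976.14) spans 126 kb of chromosome 7, 116672390 to 116798386 on the plus strand. HGF, which encodes its ligand, was listed at 0 in all 6 libraries.

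**Figure D2:**
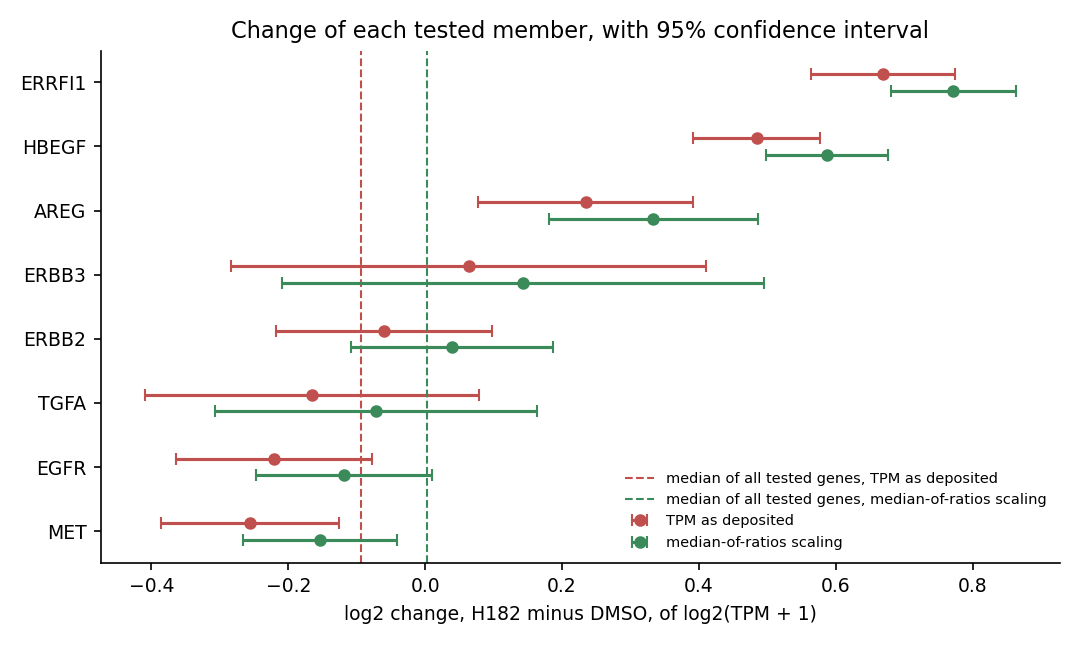
Difference in mean log2(TPM + 1), H182 minus DMSO, of the 8 tested members with limma 95% confidence intervals (3 libraries a group), in TPM as deposited (red) and with median-of-ratios scaling (green); dashed lines mark the median of all tested genes, -0.09 and 0.00. The intervals of ERRFI1, HBEGF and AREG lie wholly right of both dashed lines, and the intervals of ERBB2, ERBB3 and TGFA include 0 under both scalings. Each EGFR interval includes the dashed line of its own scaling.

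Ratios inside a library do not depend on how that library was scaled. HBEGF divided by EGFR was 1.198, 1.17 and 1.02 in H182 libraries and 0.659, 0.697 and 0.701 in DMSO libraries. The HBEGF level was thus above the EGFR level in all 3 H182 libraries and below it in all 3 DMSO libraries. ERRFI1 divided by EGFR averaged 2.52 ± 0.123 in H182 and 1.36 ± 0.0590 in DMSO, and AREG divided by EGFR averaged 0.240 ± 0.0276 in H182 and 0.173 ± 0.00964 in DMSO (SD, n = 3 each). MET divided by EGFR was 0.516, 0.507 and 0.489 in H182 libraries and 0.499, 0.526 and 0.526 in DMSO libraries, with the groups overlapping. ERBB2 divided by EGFR also overlapped, at 0.250 to 0.287 in H182 and 0.224 to 0.267 in DMSO. Such ratios show unequal change and not which gene of a pair moved.

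**Figure D3:**
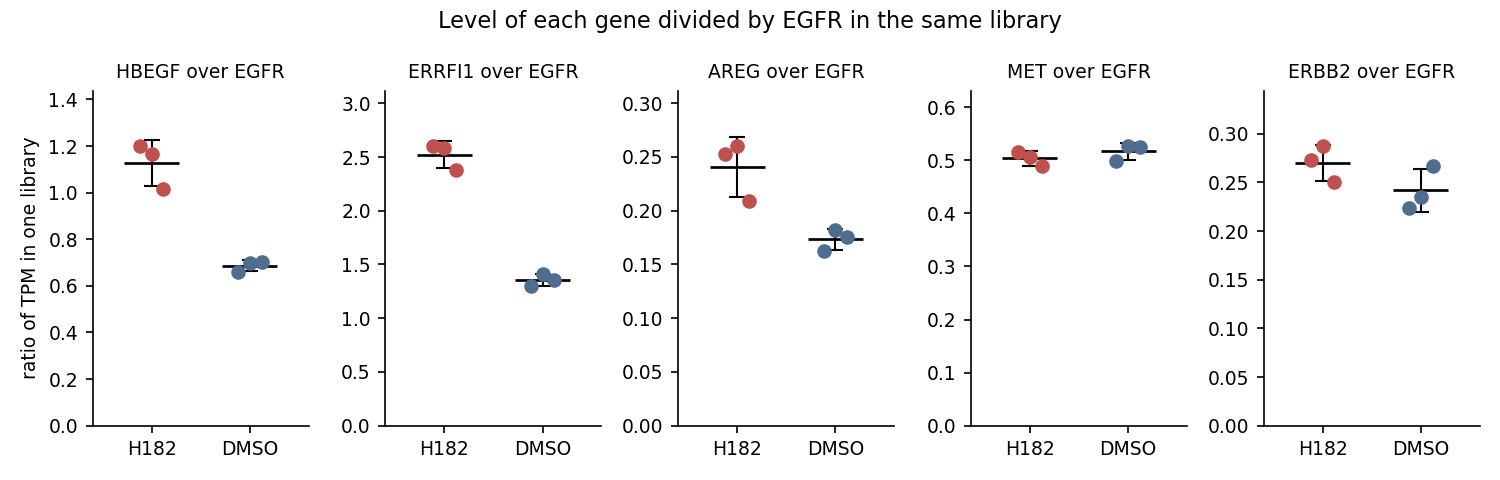
TPM of HBEGF, ERRFI1, AREG, MET and ERBB2 divided by the TPM of EGFR in the same library, H182 left and DMSO right, on linear axes that start at 0; points are libraries, bars are means and whiskers are SDs (n = 3 each). The first 3 ratios are higher in all 3 H182 libraries, and the groups overlap in the MET and ERBB2 ratios.

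By level, the order in H182 was ERRFI1, HBEGF, EGFR, MET, ERBB2, AREG, TGFA, ERBB3 and EREG. In DMSO it was ERRFI1, EGFR, HBEGF, MET, ERBB2, AREG, TGFA, ERBB3 and EREG. HBEGF and EGFR were the pair whose places differed. Within each group the ranges of no neighbouring genes in the order overlapped, so each gene lay above the next in all 3 libraries. For HBEGF and EGFR in H182, the lowest HBEGF value was 109.53 TPM and the highest EGFR value 107.85 TPM, and for ERBB2 and AREG in H182, the lowest ERBB2 value was 24.92 TPM and the highest AREG value 24.40 TPM. For each of the 5 called members an exact permutation test (two-sided, 3 libraries a group) gave p = 0.1, the smallest that it can give.

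Genes with the most similar profile were sought among 8579 genes of at least 10 TPM, by Euclidean distance over the 6 libraries of log2(TPM + 1) centred on the DMSO mean. HBEGF was nearest to HSP90AB1, a cytosolic HSP90 (3302 ± 5.54 TPM in H182, 2298 ± 30.4 TPM in DMSO), to ZFP36L1, which promotes decay of AU-rich mRNAs (227 ± 7.87 TPM in H182, 163 ± 5.03 TPM in DMSO), and to UAP1, an enzyme of amino sugar synthesis. EGFR was nearest to PRKCA, a protein kinase C gene (36.2 ± 2.87 TPM in H182, 41.8 ± 1.07 TPM in DMSO), SLC26A2 and PRPS2, none of which passed in TPM (limma adjusted p = 0.0523, 0.0784 and 0.0570). MET was nearest to BTBD10, GID8 and GNG12, which fell by 0.26, 0.24 and 0.27 on the log2 scale.

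The genes around the receptors were read from 7 further lists. Of the 8 remaining receptor and ligand genes of the family, NRG1 and NRG2 were tested and neither passed. The counts in these lists are small and are read beside the 18.7% of all tested genes that fell. Of 5 tested genes of MET activation and partnership, 2 fell and none rose: SPINT2, an inhibitor of the proteases that activate hepatocyte growth factor (354 ± 11.4 TPM in H182, 386 ± 7.72 TPM in DMSO), and SEMA4D, a semaphorin that binds plexin B1 (log2 change -0.29). Of 8 tested genes of ligand shedding, ADAM15 (log2 change -0.30) and ADAM19 (-0.31) fell. ADAM17, the main sheddase of several of these ligands, had 19.71, 21.53 and 22.82 TPM in H182 libraries and 21.89, 21.86 and 20.58 TPM in DMSO libraries, with a log2 change of -0.01 that did not pass. ADAM10, at -0.26, just missed the threshold (limma adjusted p = 0.0565). Under median-of-ratios scaling none of the genes in these 3 lists passed.

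Of 20 tested adaptor and RAS-ERK relay genes, 4 fell and none rose, which is near the 18.7% of all tested genes that fell. They were the phosphatase gene PTPN11 (log2 change -0.25), NRAS (-0.21), SHC1 (-0.21) and RPS6KA3 (-0.20), and none passed with median-of-ratios scaling. Of 13 tested PI3K relay genes, 3 fell, also without passing under that scaling, among them the regulatory subunit gene PIK3R2 (-0.20). The list medians were -0.12 and -0.11, beside -0.09 for all tested genes.

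Of 25 tested genes of receptor restraint and endocytosis, 5 fell and none rose, again a share near that of all genes, with a median of -0.10. PTPN12, a tyrosine phosphatase that acts on receptor tyrosine kinases, fell to 104 ± 3.39 TPM in H182, against 133 ± 7.70 TPM in DMSO (SD, n = 3 each; log2 change -0.35, limma adjusted p = 0.00129). PTPRJ, a receptor-type phosphatase that acts on EGFR and MET, fell by 0.37 on the log2 scale, to 27.4 ± 2.03 TPM in H182, against 35.7 ± 1.24 TPM in DMSO. Both passed with median-of-ratios scaling as well, at -0.25 and -0.27. CBL, the ubiquitin ligase that sends active EGFR and MET to lysosomes (-0.37), SOCS5 (-0.29) and PTPN1 (-0.14) fell in TPM and did not pass with that scaling. LRIG1, another EGFR restraint, was at -0.01 and did not pass. The 20 other tested genes of this list did not pass in TPM. ERRFI1, which rose, is one of the members and was not counted in this list.

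Among 21 tested receptor tyrosine kinase genes outside the family, 1 rose and 4 fell, shares near the 5.30% and 18.7% of all tested genes. AXL, the most abundant receptor tyrosine kinase gene of this list, fell to 413 ± 23.3 TPM in H182, against 492 ± 8.78 TPM in DMSO (log2 change -0.25, limma adjusted p = 0.00352), and passed with median-of-ratios scaling at -0.15. PTK7 (-0.25), EPHB2 (-0.24) and EPHA2 (-0.16) fell in TPM and did not pass with that scaling. EPHB3, an ephrin receptor gene, rose, with 2.13, 2.11 and 1.86 TPM in H182 libraries, against 0.36, 0.24 and 0.53 TPM in DMSO libraries (log2 change 1.14, limma adjusted p = 0.00106). Its DMSO mean was 0.377 TPM, so EPHB3 met the 1 TPM filter only through its H182 libraries. Its p-value is to be read with that limit. FGFR1, at 80.41 to 85.64 TPM in H182 and 80.11 to 85.64 TPM in DMSO, had a log2 change of 0.00 that did not pass.

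**Figure D4:**
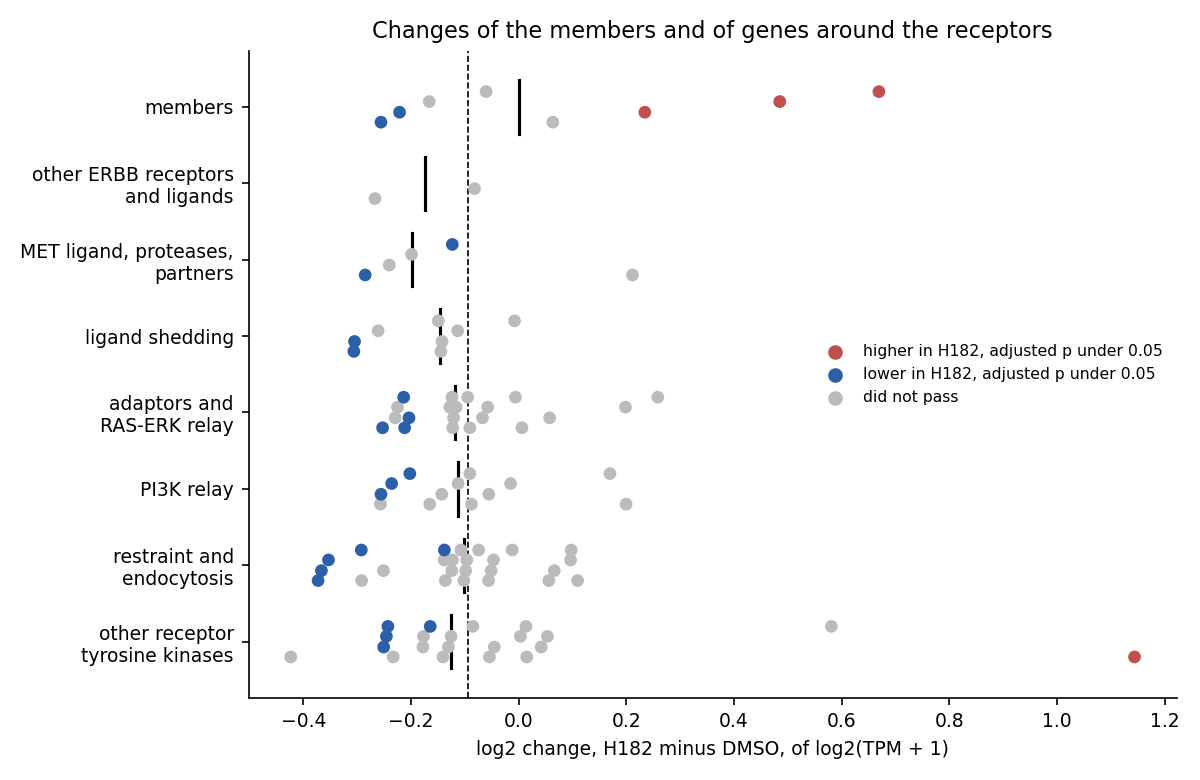
Log2 change (H182 minus DMSO, of log2(TPM + 1)) of each tested gene in the members and 7 further lists; red points passed as higher, blue points passed as lower and grey points did not pass (limma adjusted p under 0.05), short vertical bars are list medians, and the dashed line is the median of all tested genes, -0.09. The members hold 3 red and 2 blue points, and the other lists hold 1 red point, EPHB3, and 20 blue points.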

How the data were processed

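RNA of 3 H182 and 3 DMSO libraries was analysed from 1 table of TPM per gene, which the authors deposited rounded to 2 decimals. The build was GRCh38 and the tools named were RSEM 1.2.25 and STAR 2.5.0, per the submitters' processing notes; the annotation, trimming and strand setting are not given in the sources used here. TPM keeps no depth, so no counting interval was possible, and strong rises in some genes push down the TPM of the rest. From 27567 rows, 92 spike-in rows at 0 and 24 second copies of X and Y genes were left out. Between 12230 and 12353 genes reached 1 TPM per library.

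Values were tested as log2(TPM + 1), pseudocount 1, for genes averaging 1 TPM or more, with limma 3.58.1 (R 4.3.3; moderated, mean-variance trend, two-sided) and Benjamini-Hochberg adjustment over all 12294 genes, threshold 0.05. Fold changes on this scale understate changes of low genes. Errors are SDs over 3 libraries; intervals are 95%. The labels do not say whether replicates were separate cultures, so p-values may measure technical spread. The fit was tested on simulated data. Alternatives changed the pseudocount, filter, scaling, variance model, weights, block and replicates. Members and lists were chosen with earlier results of these data known. Genes named per list are those passing, up to 4 by lowest p, and for EGFR, HBEGF and MET the 3 nearest profiles; PTPN1, EPHA2, ADAM17, ADAM10, LRIG1, NRG1, HGF, ERBB4, EPGN, BTC and FGFR1 were added after their values were seen. A few genes so chosen are not reported here. By identifier, 9 of 9 members matched GENCODE 29 (7 with the same version), which gave coordinates; 8 had a RefSeq promoter. Figures used matplotlib 3.10.9.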

Additional observations from a re-analysis of the deposited data

How the results depend on the processing

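HBEGF and ERRFI1 kept their direction and stayed past the threshold under all 9 alternative settings and without each library, with log2 changes of 0.48 to 0.59 and 0.64 to 0.77. EGFR lost its call without a filter (-0.22), without a mean-variance trend (-0.22), with median-of-ratios scaling (-0.12) and with quantile normalization (-0.14), and ranged from -0.29 to -0.18 without single libraries. AREG lost its call without a filter and with the replicate block (0.23 in both) and ranged from 0.20 to 0.27 without single libraries. MET lost its call with median-of-ratios scaling (-0.15) and kept it with quantile normalization (-0.18, limma adjusted p = 0.0415). Without single libraries MET ranged from -0.31 to -0.23 and passed each time, with a highest limma adjusted p of 0.0486, near the threshold. ERBB2 changed sign with median-of-ratios scaling (0.039) and quantile normalization (0.0070) and ranged from -0.093 to -0.012 without single libraries. TGFA passed in no setting and ranged from -0.27 to -0.09 without single libraries. ERBB3 changed sign without H182 replicate 1 (-0.037) and DMSO replicate 2 (-0.015), with a range of -0.037 to 0.19. The ligand sum in H182 over DMSO was 1.31 in TPM, 1.40 with median-of-ratios scaling and 1.38 with quantile normalization. With NRG1 added, the ligand ratio was 1.15 in TPM. For the receptors EGFR, ERBB2 and ERBB3 the ratio of sums was 0.882 in TPM, 0.947 with median-of-ratios scaling and 0.933 with quantile normalization. Genes lower in H182 numbered 2304, 833 with median-of-ratios scaling, 1261 with quantile normalization and 1407 to 2205 without single libraries. Over the 7 lists, 20 genes were lower: 11 without a filter, 12 without a trend, 3 and 5 with those scalings, and 8 to 23 without single libraries. Higher list genes numbered 1: 2 without a filter, without a trend or with array weights, 0 with the filter set to 5 TPM, and 1 to 2 without single libraries. Why calls and counts moved between settings was not tested. The replicate numbers did not pair the libraries (correlations of deviations -0.0130, 0.00245 and -0.0359 for numbers 1, 2 and 3, and none of the 6 libraries correlated best with its own number), and the block moved the genes higher to 625 and lower to 2059. ERBB3 has no value with the filter set to 5 TPM, and EREG was under the filter in every setting but the unfiltered one. Depth is unknown, so the precision of low genes such as EREG and ERBB3 cannot be set.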

Other observations

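The members that rose have shorter genes than those that fell, a comparison made after their values were seen: HBEGF, AREG and ERRFI1 span 13.8, 9.88 and 21.9 kb, and EGFR and MET 193 and 126 kb, with TGFA at 107 kb, ERBB2 at 42.5 kb, ERBB3 at 26.7 kb and EREG at 23.6 kb. Over 12250 tested genes with a known span, 7.86% of the 4454 genes under 20 kb were higher and 18.7% lower in H182, beside 4.49% and 20.03% of the 5478 genes of 20 to 100 kb, and 2.37% and 15.9% of the 2318 genes of 100 kb or more. The median log2 changes of these classes were -0.08, -0.10 and -0.10. Any part of gene length in the members' changes was not tested.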
